A study of Homo sapiens with 2 samples.

Results

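The PDE4 genes encode the cyclic AMP phosphodiesterases PDE4A, PDE4B, PDE4C and PDE4D, and the peaks of RNA bound to HNRNPC in these genes are described here. The peaks were chosen by position: a peak belonged to a PDE4 gene when its summit lay in the gene's RefSeq span on GRCh38. In all, 92 of the 23148 peaks in the list did so, 88 in PDE4D and 4 in PDE4B, with 0 in PDE4A and 0 in PDE4C. They come from RNA immunoprecipitation followed by sequencing (RIP-seq) in A549, a cell line long established from a human lung carcinoma, with no treatment given in the labels. The study has 1 library made with 5 µg of an antibody against HNRNPC and 1 input library made without it. Only the peaks of the immunoprecipitate (IP) were used. Nothing here has a replicate check, and no test between samples could be made, because each group is a single library. The list holds no expression values, so the identity of the line was not checked against markers and a lack of peaks does not separate a silent gene from an unbound RNA. The family was picked because PDE4D held more peaks than any other gene (rank 2 when only peaks with a q of 0.001 or less were counted, and rank 6 when peaks less than 1000 bp apart were merged). That number is therefore a description, whereas the positions of the peaks were not used in the choice.

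HNRNPC is a nuclear protein that packages nascent transcripts and is known to bind runs of U, many of them in introns. PDE4 enzymes break down cyclic AMP, the second messenger made by adenylyl cyclases, and so end signalling through protein kinase A and related effectors; inhibitors of the family are used against inflammation of the airways. Each PDE4 gene is known to have several alternative promoters, which yield long and short enzyme forms that share the catalytic domain at the 3' part of the gene but differ in their regulatory regions. Positions along these genes therefore belong to different sets of transcripts.

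PDE4D (NCBI gene 5144) spans chr5:58969038-60522128 on the minus strand, 1553091 bp, and PDE4B (gene 5142) spans chr1:65792510-66374579 on the plus strand, 582070 bp. PDE4A (gene 5141, chr19:10416773-10469631) and PDE4C (gene 5143, chr19:18207965-18255362) are short by comparison, at 52859 and 47398 bp. Of 20033 protein-coding genes, 17.2% held 1 peak or more and 3.76% held 10 or more. Relative to span PDE4D held 5.67 peaks per 100 kb and PDE4B 0.687. PDE4D thus came only at position 691 of 763 genes with 10 or more peaks when these were ordered by density, for which the median was 14.7 per 100 kb. Genes of like span are those for which the shorter span was at least 0.8 times the longer. Of 25 such genes for PDE4D, 1 held a peak, TENM3 with 1 peak. Of 209 for PDE4B, 39 (18.7%) held a peak, and 27 held at least the 4 of PDE4B, among them PDE10A with 21. Around PDE4A 616 of 2201 genes of like span (27.99%) held a peak, and around PDE4C 599 of 2227 (26.9%), so most genes of their length also had none.

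**Figure D1:**
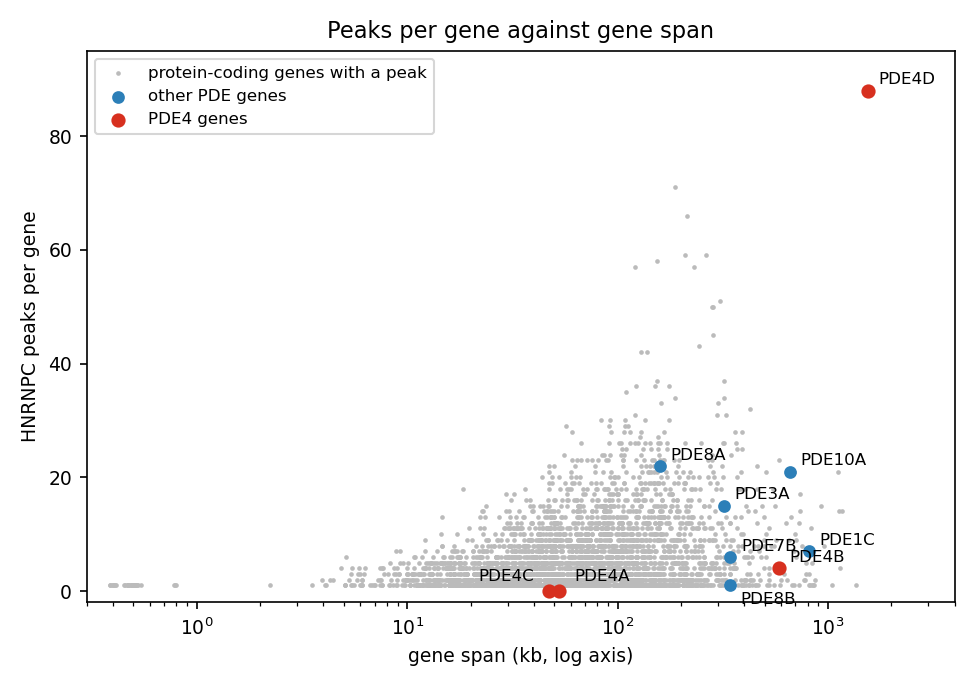
Number of HNRNPC peaks per gene (y axis) against gene span in kb (log x axis); each grey point is a protein-coding gene with a peak, red points are the 4 PDE4 genes and blue points the other phosphodiesterase (PDE) genes with a peak. PDE4D lies alone at the upper right with 88 peaks, PDE4B has 4, and PDE4A and PDE4C lie at 0.

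The RefSeq start table lists 8 transcription starts for PDE4D, numbered here from the 5' end, and a peak lay over the window of each of the 5 starts nearest the 3' end and over none of the 3 outer ones. A window runs from 250 bases before to 50 after the start. Over all 22198 windows of protein-coding genes a peak overlapped 7.05%, and over the 4374 windows of protein-coding genes that held a peak, 33% (1444 windows). Of 225 protein-coding genes with 5 or more listed starts, 2 had a peak over at least 5 windows, PDE4D and PFKM, which encodes a phosphofructokinase and was named after its values were seen. Neither the 225 genes nor the 33% were matched to PDE4D for number of peaks, the measure by which it was picked. Starts 4 and 5 shared a single peak, so the 5 windows were covered by 4 peaks. The sequences around these 5 starts are given because each lies at the edge of, or inside, a peak. They are from RefSeq (GRCh38.p14), 120 bases before to 30 bases after the start on the minus strand, with capitals for the bases inside a deposited peak.

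PDE4D start 4, chr5:59587596-59587745: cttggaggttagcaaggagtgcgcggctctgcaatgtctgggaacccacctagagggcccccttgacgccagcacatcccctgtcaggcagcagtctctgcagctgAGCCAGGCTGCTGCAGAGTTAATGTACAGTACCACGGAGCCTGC
PDE4D start 5, chr5:59586475-59586624: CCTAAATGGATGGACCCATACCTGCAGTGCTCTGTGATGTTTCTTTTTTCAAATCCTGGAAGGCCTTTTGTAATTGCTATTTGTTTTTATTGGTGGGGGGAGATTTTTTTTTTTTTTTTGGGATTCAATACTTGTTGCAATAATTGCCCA
PDE4D start 6, chr5:59356941-59357090: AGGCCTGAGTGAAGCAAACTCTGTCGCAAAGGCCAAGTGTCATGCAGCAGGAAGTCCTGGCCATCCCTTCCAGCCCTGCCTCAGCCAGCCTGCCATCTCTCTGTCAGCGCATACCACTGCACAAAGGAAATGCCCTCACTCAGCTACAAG
PDE4D start 7, chr5:59039447-59039596: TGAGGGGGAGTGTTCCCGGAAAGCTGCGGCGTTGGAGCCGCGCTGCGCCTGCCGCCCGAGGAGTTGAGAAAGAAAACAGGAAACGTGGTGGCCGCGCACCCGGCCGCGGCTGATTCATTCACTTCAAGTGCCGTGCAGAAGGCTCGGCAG
PDE4D start 8, chr5:58999869-59000018: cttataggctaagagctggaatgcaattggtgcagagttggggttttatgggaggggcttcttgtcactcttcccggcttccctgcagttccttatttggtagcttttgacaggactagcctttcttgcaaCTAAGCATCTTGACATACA

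At start 7, position 59039476, all printed bases lay inside a peak of 5215 bp, the widest in the family, which reached from 744 bases before the start to 4470 bases after it with a fold enrichment of 23.8. At start 8, position 58999898, the peak began 11 bases after the start and had a fold of 8.19. At start 6, position 59356970, a peak of 752 bp began 545 bases before the start and had a fold of 6.24. At starts 4 and 5, positions 59587625 and 59586504, a peak of 1315 bp with a fold of 10.9 began 14 bases before start 4 and ended 179 bases after start 5. The nearest summit to starts 4 to 8 lay 164 to 551 bases away. The outer starts 1, 2 and 3 (60496286, 60372663 and 59893726) lay 149, 272 and 125 kb from the nearest summit. For starts 1 and 2 that summit was outside PDE4D.

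The covered windows differed widely in base composition. The longest run of T on the gene's strand was 16 bases, in the window of start 5, and 4 bases in those of starts 4, 6, 7 and 8. GC content was 68.3% at start 7 and 36.7% at start 5. The motif TTTTT, searched on the gene's strand as a run of U in the RNA, was thus present at start 5 alone among the 8 PDE4D windows. It was found in 20.7% of all windows of protein-coding genes, in 16.3% of those with a peak over them and in 21.04% of those without. On the other strand, read as AAAAA, it was present at starts 1 and 6 of PDE4D and in 20.4% of all windows. Sequence under the peaks away from the starts was not analysed here.

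Along PDE4D the peaks were concentrated at the 3' end, between start 7 and the end of the gene. This stretch of 70.4 kb makes up 4.54% of the span and held 57 of the 88 summits (64.8%, 95% exact Clopper-Pearson interval 53.9 to 74.7%). Density was 80.9 peaks per 100 kb in the stretch and 2.09 in the rest of the gene, a ratio of 38.7. Of the 763 genes with 10 or more peaks, 3 had a higher density over their whole span than this stretch: ARRDC3, LINC00472 and THBS1, all short genes of 12882 to 18388 bp, named after their values were seen. This sets a part of PDE4D, marked off after its peaks were seen, against whole genes, and dense parts of other genes were not measured. Over its whole span PDE4D came at position 691 of the 763. In the stretch from start 7 to the 3' end, peaks covered 30.4% of the bases, against 0.493% in the rest of the gene. Merging peaks less than 1000 bp apart left 35 runs in PDE4D, of which 45.7% lay in the stretch. Intervals on shares and densities cover counting error only, and neighbouring peaks are not independent.

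**Figure D2:**
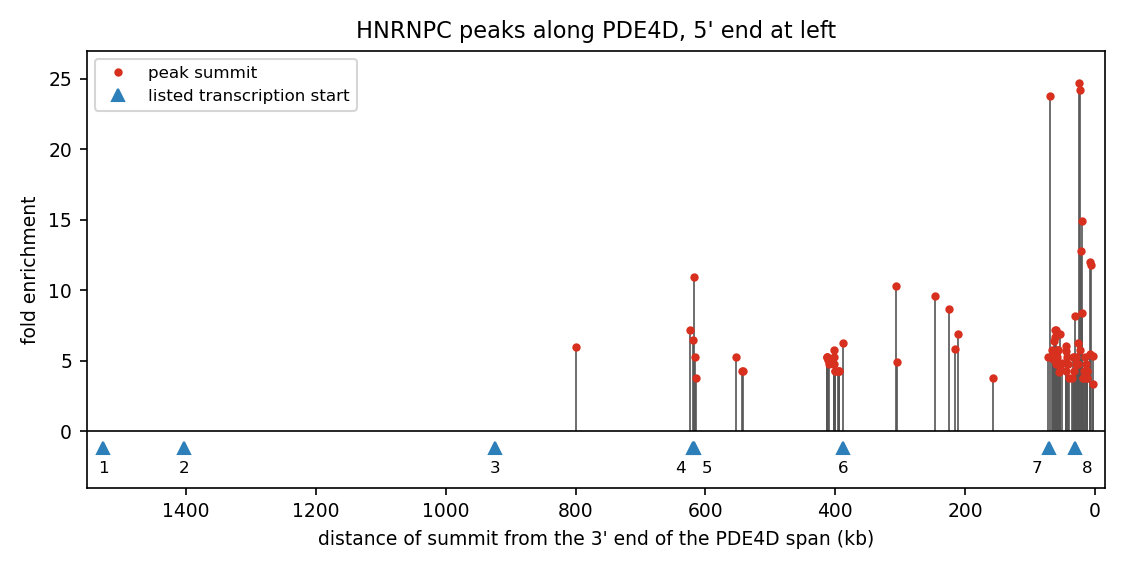
Fold enrichment (y axis) of each of the 88 PDE4D peaks at the distance of its summit from the 3' end of the gene span in kb (x axis, 5' end at left); blue triangles are the 8 listed transcription starts. The 5' part with starts 1 to 3 is empty, and most summits stand between start 7 and the 3' end.

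The step in density was at start 7. Between starts 6 and 7, over 317 kb, there were 9 summits, or 2.83 per 100 kb (95% exact Poisson interval 1.30 to 5.38). Between starts 7 and 8, over 39.6 kb, there were 30, or 75.8 per 100 kb (51.1 to 108). From start 8 to the 3' end, over 30.9 kb, there were 27, or 87.5 per 100 kb (57.7 to 127). Start 7 was taken as a boundary after the peaks were seen, and neighbouring peaks are not independent. Whether these intervals overlap is therefore no test of a step. Between starts 5 and 6, over 230 kb, there were 18 summits, or 7.84 per 100 kb (4.65 to 12.4), and between starts 3 and 4, over 306 kb, 3 summits, or 0.980 per 100 kb (0.202 to 2.86). Starts 4 and 5 are 1.12 kb apart with 1 summit between them. Upstream of start 3 there were 0 summits, in segments of 25.8, 124 and 479 kb. In 10 equal bins of 155 kb, counted from the 3' end, there were 58, 7, 14, 7, 1 and 1 summits and then 0 in each of the last 4. Whether these steps follow the amount of RNA made from each start was not tested, as no expression values were analysed here.

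The 5 strongest peaks of the gene lay in the 3' stretch. The highest, chr5:58993332-58993608, had the top fold, 24.7, with a −log10 q of 47.1, and ranked 4 of 23111 peaks by fold. The peak at chr5:58991795-58992045, toward the 3' end from it, had a fold of 24.2 and ranked 6. The wide peak over start 7, chr5:59035006-59040220, had 23.8 and ranked 7. The peaks at chr5:58989720-58990542 and chr5:58990718-58990931 followed with folds of 14.96 and 12.8. Of these 5, the 4 other than the one over start 7 lay within 3.89 kb, 6.48 to 10.1 kb downstream of start 8. Folds of 10 or more were found in 9 PDE4D peaks (10.2%, against 8.65% of all peaks). Of the 9, 7 lay in the 3' stretch, which held 64.8% of all PDE4D peaks, and 2 outside it. Besides the 5 named, those in the stretch were chr5:58977173-58977379 with a fold of 12.01 and chr5:58975654-58975855 with 11.8, both downstream of start 8. The median fold was 5.27 both in the 3' stretch and outside it, so the stretch stood apart by the number of peaks and not by its typical fold.

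**Figure D3:**
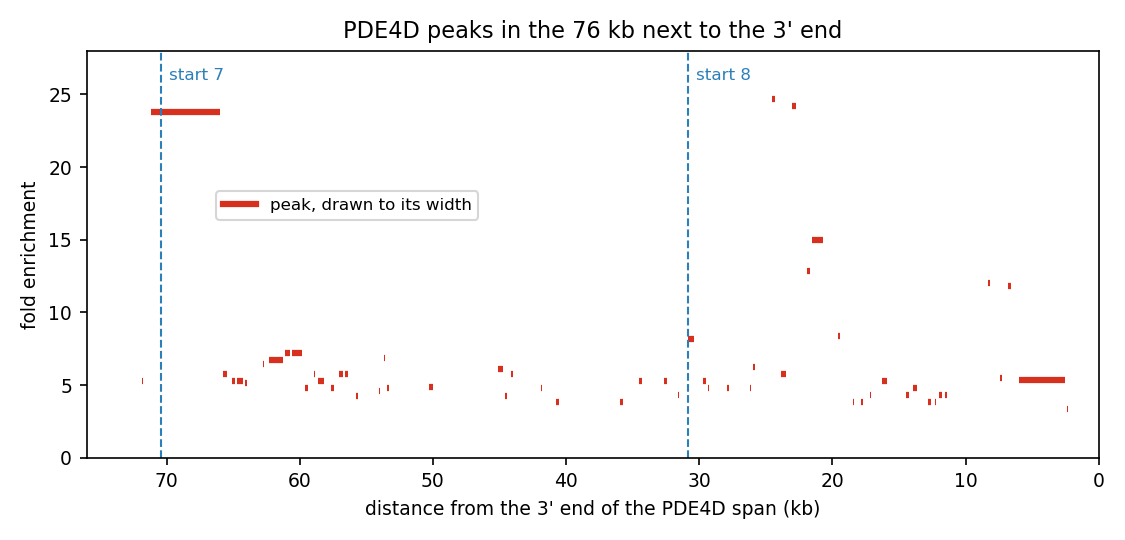
PDE4D peaks in the part of the gene next to its 3' end, each drawn as a bar of its true width at its fold enrichment (y axis) against distance from the 3' end in kb (x axis); dashed lines mark starts 7 and 8. The bars are spread over the stretch from start 7 to the 3' end, with the highest folds at start 7 (23.8) and downstream of start 8 (24.2 and 24.7).

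A few wide peaks held much of the covered sequence. In PDE4D 5 peaks (5.68%) were 1000 bp or wider, against 2.53% of all peaks, and they held 44.6% of all bases covered in the gene. They were the peak over start 7, the peak over starts 4 and 5, a peak of 3520 bp close to the 3' end at chr5:58971541-58975060 with a fold of 5.36, a peak of 1750 bp at chr5:59275153-59276902 with a fold of 10.3 and a peak of 1004 bp at chr5:59030319-59031322 with a fold of 6.73. The last summit before the 3' end of the span was at 58971379, 2.34 kb from it, in a peak of 63 bp with the lowest fold of the gene, 3.34. Over all PDE4D peaks the median width was 170 bp (quartiles 104 and 242 bp), against 125 bp over the whole list.

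With runs taken as summits less than 10 kb apart, the 88 summits formed 9 runs. The longest held 58 summits over 69.4 kb, from 58971379 to 59040807, with a median spacing of 902 bp. Its last summit lay 1.33 kb upstream of start 7, and after it no summit followed for 84.6 kb. The next largest run held 14 summits over 25.5 kb, from 59356806 at start 6 to 59382333. Of these, 13 lay upstream of start 6, at 6.12 to 25.4 kb from it, and all 13 were narrow (at most 216 bp) and low, with folds of 4.30 to 5.76. A run of 5 summits over 7.89 kb surrounded starts 4 and 5, with folds up to 10.9. Of the remaining runs, 2 held 3 summits, 1 held 2 and 3 held 1. Between starts 6 and 7 the highest were the wide peak with a fold of 10.3 and a lone peak with its summit at 59215829 and a fold of 9.60. The most 5' summit, at 59768489 with a fold of 5.99, lay 754 kb from the 5' end, so that the 48.5% of the span before it was without a summit.

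Folds in PDE4D were mostly low. The median was 5.27 (quartiles 4.30 and 6.24), against 5.76 (4.79 and 7.22) over all 23111 peaks on chromosomes 1 to 22, X and Y. Of the 88 peaks, 25 (28.4%) lay below the lower quartile of all peaks and 13 (14.8%) above the upper one. The shares of all peaks beyond these values were 22.4% and 24.5%. The median −log10 q was 3.67, against 5.22 over the list. Read totals are not given, so the depth of the library is unknown, but the way the peak caller MACS2 is known to form fold and p allows a background level and a read number at the summit to be inferred. The fold and p of 60 PDE4D peaks (68.2%) matched 1 common background level of 0.103, as did 47.5% of all peaks, and at that level the coverages at the summit were whole multiples of a step of 0.535, which was taken as 1 read. Whether the input library served as the caller's control is not stated in the sources used here, so what this level and the folds are relative to is not known, and the read numbers assume the caller's usual formulas. The peak of fold 24.7 then had 49 reads at its summit (95% exact Poisson interval 36.3 to 64.8) and that of fold 24.2 had 48. Of the 60, 20 stood on 6 or 7 reads. At a common background the folds order peaks by IP reads alone, and the part of the amount of RNA in them was not tested.

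PDE4B had 4 peaks, all narrow and low. They were at chr1:65992871-65992974 with a fold of 4.63, chr1:66332472-66332525 with 5.10, chr1:66355570-66355627 with 5.10 and chr1:66361633-66361699 with 4.79, all below the median of the list, and their widths were 54 to 104 bp. Of the 4, 1 was at the common background level, the last, with 8 inferred reads. The first 3 of these summits lay 151 bases downstream of start 4 of the 6 listed for PDE4B, 371 bases downstream of start 5 and 1037 bases downstream of start 6, and the last 7109 bases downstream of start 6. No peak overlapped a start window of the gene. Upstream of start 4 the gene held 0 summits: the first 34.4% of the span was empty, although 3 starts are listed there. With 4 peaks this is a description of single positions.

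PDE4A, with 5 listed starts, and PDE4C, with 4, had no peak over any start window. The nearest summits to their starts lay 637 kb or more from those of PDE4A and 101 kb or more from those of PDE4C, outside both genes. The 0 for both did not change when a peak needed to overlap the span by only 1 base. A list that gives only called peaks sets no upper limit on binding there.

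Peaks carry no strand, so overlapping genes matter. Of the 10 other genes that overlap the PDE4D span, 1 held a summit, the lncRNA gene PDE4D-AS1 (chr5:59039766-59063510, plus strand), which begins upstream of start 7 and is read in the opposite direction. Its summit, at 59040807 in a peak of fold 5.27, could belong to either gene, and the wide peak over start 7 also reached into it. None of the others, among them MIR582 and the lncRNA gene PART1 at the 5' end, held a summit. The neighbouring protein-coding gene beyond the 3' end, RAB3C, 110 kb away, had 0 peaks, and DEPDC1B, 74.8 kb beyond the 5' end, had 3 with a highest fold of 8.67.

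PDE4D peaks lay nearer the 3' end than those of most genes with many peaks. For 18257 peaks in 2876 protein-coding genes with a listed strand, the median position was 58.1% of the span from the 5' end, and 13.5% lay in the last 10% of the span. In PDE4D the median position was 96.3%, and 65.9% (95% exact Clopper-Pearson interval 55.0 to 75.7%) lay in the last 10%. The interval covers counting error only, and neighbouring peaks are not independent. With peaks less than 1000 bp apart merged, the share in the fullest 10% was 45.7%. Among the 640 of these genes with 10 or more peaks, the median of the gene medians was 64.0%, and PDE4D ranked 4 by median position. The shortest stretch with at least 50% of its peaks was 48.5 kb, or 3.12% of the span, and 17 of the 640 genes had a smaller share (median 16.7%). Among the 19 of them that span 500 kb or more, the median of the gene medians was 82.3%, with a range from 1.19% in PDE10A to 98.6%. A late median position was thus found in other long genes with many peaks too, while several of them had an early one. The median share in these 19 was 4.91%, and 7 had a smaller share than PDE4D. A later median position than that of PDE4D was found in 2, the zinc finger genes ZFHX3 (98.6%) and ZBTB20 (98.1%), named after their values were seen. With peaks less than 1000 bp apart merged the PDE4D stretch grew to 202 kb. No merged value is given here for the other genes, and the cause of the change was not tested. No test was made of these differences.

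Of the 20 other phosphodiesterase genes, 6 had a peak (30%, against 17.2% of all protein-coding genes). PDE8A, a cyclic AMP-specific enzyme gene, had 22 peaks with a highest fold of 10.98. PDE10A, which acts on both cyclic AMP and cyclic GMP, had 21 (highest fold 9.35), PDE3A, the cyclic GMP-inhibited enzyme, had 15 (13.9) and PDE1C, a calmodulin-dependent enzyme, had 7 (6.04). Their median positions were earlier than that of PDE4D, but the places of the peaks were not separate. Those of PDE3A lay from 0.455% to 97.8% of its span. The median position was 1.19% of the span from the 5' end in PDE10A, 67.4% in PDE8A, 72.7% in PDE1C and 83.9% in PDE3A, against 96.3% in PDE4D and 94.8% in PDE4B. The median span of these 20 genes was 131 kb, against 24.1 kb for all protein-coding genes, and neither span nor expression was matched in the comparison of shares.

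**Figure D4:**
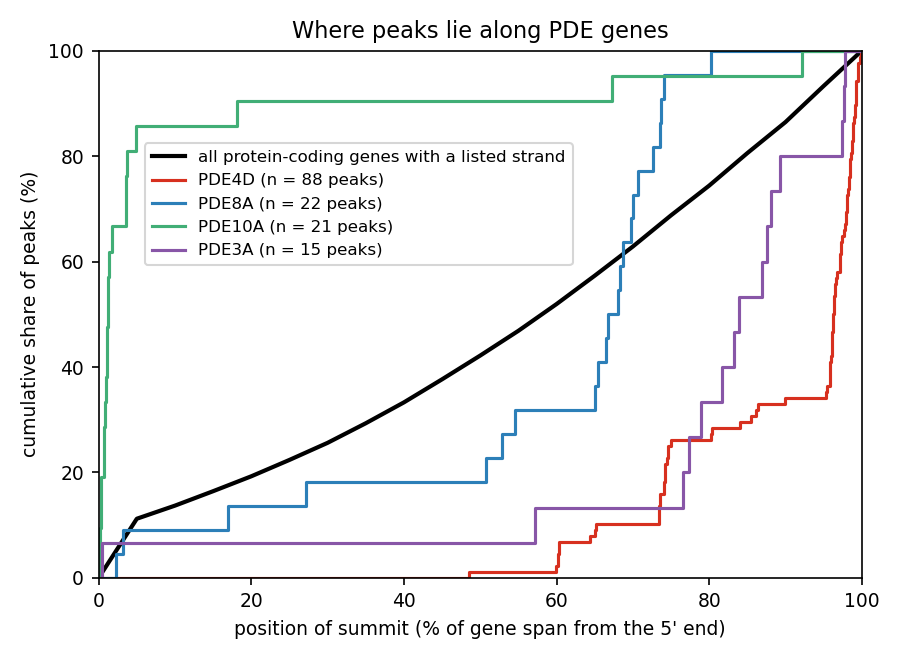
Cumulative share of peaks (y axis, %) against the position of the summit along the gene span from the 5' end (x axis, %) for PDE4D and the 3 other PDE genes with 10 or more peaks; the black line is all 2876 protein-coding genes with a peak and a listed strand. PDE4D rises mostly in the last 10% of its span, PDE10A mostly at the 5' end, with median positions of 96.3% and 1.19%.

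Genes upstream and downstream of the phosphodiesterases in the cyclic AMP pathway were counted in lists of 10 to 24, again beside 17.2% of all protein-coding genes. Shares of 20 to 25% in lists this small are near that value. Of 15 adenylyl cyclase and G protein alpha subunit genes, 3 had a peak (20%): GNAI3, an inhibitory subunit, had 3 peaks (highest fold 7.46), and the cyclase gene ADCY9 and the stimulatory subunit gene GNAL had 1 each (3.82 and 4.79). Of 15 genes for effectors of cyclic AMP, 3 had a peak (20%), all for subunits of protein kinase A: the regulatory subunit genes PRKAR2A with 12 (highest fold 12.1) and PRKAR1A with 11 (6.58), and the catalytic subunit gene PRKACB with 10 (8.67). Of 24 genes for A-kinase anchoring proteins and PDE4 partners, 6 had a peak (25%), with 25 in AKAP13 and 12 each in AKAP10 and AKAP11, which anchor protein kinase A, and 5 in AKAP12. Of 10 genes of the CREB family and its coactivators, 4 had a peak (40%), with 15 in the acetyltransferase gene CREBBP, 10 in its paralog EP300, 2 in CREB1 and 1 in ATF1. Median spans were 67.4 to 101 kb in these lists, longer than the 24.1 kb of all protein-coding genes, so the shares are not matched for length and describe these genes only.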

How the data were processed

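RIP-seq peaks of 1 IP library were analysed; values of the input library were not used here. Per the submitters' processing notes, HISAT2, MACS2 and bedtools were used on hg38, with roles, versions and settings not given in the sources used here. Each deposited peak has a fold (a ratio, signal over the caller's background), and the −log10 of its p-value and q-value. It also has a deposited score, equal to 10 times −log10 q without its decimals for every one of the 23148 peaks. The highest q is 0.00998. These are the authors' own values and serve only to describe peaks within this list.

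The 23111 peaks on numbered or sex chromosomes were assigned by summit, 1-based, to RefSeq gene spans (GRCh38.p14); a summit inside several protein-coding genes counted for none. Strand and starts came from a RefSeq table of start windows. Exons were not resolved. Background level and reads were inferred by taking fold as summit coverage plus 1 over background plus 1, and p as the Poisson tail, and then dividing the coverage by the spacing of its values at the common level (0.535, taken as 1 scaled read); 99.98% of peaks at that level gave read numbers within 0.05 of whole ones. Whether the input served as control in peak calling is not given in the sources used here. Named genes were the members, genes with a summit that overlap PDE4D, its neighbours, up to 5 genes of like span to PDE4D with the most peaks, and up to 4 genes per pathway list. Of PDE4D peaks the 5 highest, the 5 widest, those at either end and the densest run were named. The members and lists were chosen with earlier results of these data known. Alternatives were a stricter q (0.001), a minimum fold (4), other overlap rules, shared peaks counted for each gene, 20 bins in place of 10, and merging of peaks under 1000 bp apart. Gene assignment, the background level, merging and the shortest stretch were tested on simulated data. The inferred read numbers were not. Python 3.11.15 was used with scipy 1.17.1, numpy 2.4.6, pandas 2.3.3 and, for plots, matplotlib 3.10.9.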

Additional observations from a re-analysis of the deposited data

How the results depend on the processing

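Of 65 alternative values, 56 were counted as unchanged and 9 as changed. The rule for this was loose for counts. The fall of PDE4D from 88 peaks to 63 with q of 0.001 or less, or to 60 at the common background level, was counted as unchanged. So was a fall from 3 to 2 genes with a peak in the adenylyl cyclase and G protein list. All values for PDE4A and PDE4C were 0. Merging peaks under 1000 bp apart gave 35 PDE4D runs in place of 88 peaks and rank 6 among genes, a median fold of 5.85, a share of 45.7% in the fullest of 10 bins of the span and likewise 45.7% downstream of start 7, and 202 kb for the shortest stretch with at least 50% of the peaks. This alternative counts close neighbours once, so it leaves fewer entries in PDE4D by construction. Why the rank, the median fold, the shares and the stretch changed was not tested. With q of 0.001 or less PDE4D ranked 2 by number of peaks, with 63, and its median fold was 5.76; the cause of the change in rank was not tested. Taking only peaks at the common background level left PDE4B with 1 peak and PDE4D with 60. This alternative and those for the stretch downstream of start 7, the starts with a peak and the shortest stretch were chosen after seeing the data. With 1 library, unknown depth and many peaks on few reads, single low peaks are uncertain.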

Other observations

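PDE10A differed from PDE4D in where its peaks lay. Its 21 peaks had a median position of 1.19% of the span from the 5' end, and the shortest stretch with at least 50% of them was 7.45 kb, although no peak overlapped its 2 listed start windows. PDE7B had 6 peaks, the shortest such stretch being 1.56 kb, and a peak lay over its single listed start; it was named after its values were seen. These are values of 1 library with no replicate check.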
